A study of Oryza sativa Indica Group with 8 samples.

Results

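The interaction of an early and a late salt shock was examined in leaves of rice, as the departure of twice-shocked plants from what the single shocks would give together. Members were all 8 of the series' 8 leaf libraries, chosen by their labels and fitted together. The plants were of the genotype BRS Ligeirinho, an indica rice labelled as sensitive to salt stress, raised in sand with nutrient solution in a greenhouse. There were 4 groups of 2 libraries. Double-shock plants met salt at the vegetative stage V4 and again at the reproductive stage R0-R1, reproductive-shock plants met it only at R0-R1, vegetative-shock plants only at V4, and control plants never. The sources used here do not give the salt dose, how long a shock lasted or when leaves were taken after it, so an effect of the shocks and one of sampling time cannot be told apart. Whether replicate libraries stem from different plants is not stated in the labels, and the p-values below therefore reflect library-to-library spread that may be technical.

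Salt slows water uptake and lets sodium build up in the leaf, and plants answer through the hormone abscisic acid, through ion transport and through protective proteins and solutes. A plant that has been stressed can respond otherwise to a later stress, which is called stress memory. In a design that crosses an early with a late shock, a changed response of this kind would appear as an interaction. The interaction compares the effect of the early shock in plants that later met salt again (double shock over reproductive shock) with its effect in plants that did not (vegetative shock over control). On the log2 scale it is 0 when the fold changes of the single shocks simply multiply. It is positive when double-shock leaves hold more of a transcript than that product, and negative when they hold less.

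The tables name loci only by identifier, and no function was assigned to any locus here, since neither the files nor the reference gene table pair these identifiers with names. In a LOC_Os identifier the first number is the chromosome. The loci are therefore described by level, direction and chromosome, and 4 are named. The leaf label was not checked against marker genes for the same reason.

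The libraries held 10464740 to 11727657 counted reads, and 24120 to 24801 loci had at least 1 read. Levels are given in CPM, counts scaled by library size with TMM factors. A count of 0 allows up to 3 reads, or 0.246 to 0.292 CPM depending on the library (counting error only). Across loci the log2 CPM values of a group's libraries correlated at r = 0.971 to r = 0.980. Double-shock replicate 2 and both vegetative-shock libraries each lay closer to a library of another group than to their own replicate. The share of reads aligned to more than 1 place was 13.6% in double-shock replicate 1, 13.8% in reproductive-shock replicate 2 and 13.5% in control replicate 1, and 9.32% to 9.99% in the other 5 libraries.

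Of 18251 loci tested, 18 had an interaction past the threshold, an adjusted p below 0.05 by edgeR's quasi-likelihood test with Benjamini-Hochberg adjustment. That is 0.0986% of the loci tested. The interaction was positive at 13 loci (0.0712%) and negative at 5 (0.0274%). Sizes ranged from 1.28 to 6.26 on the log2 scale in the positive loci, with a median of 2.30, and from -3.21 to -2.22 in the negative ones, with a median of -3.05. Over all loci tested the median interaction was 0.01, and 7.84% of loci had an estimate beyond 1 in either direction. The median standard error (SE) of an interaction was 0.31, against 0.22 for a comparison of 2 groups. Without adjustment, 1772 loci (9.71%) had a p below 0.05, 882 of them positive and 890 negative. The 175 loci (0.959%) called by DESeq2 included all 18, and 98 of the 175 were positive.

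All 18 loci had the same shape. Both single shocks lay on the same side of control, and the double-shock level lay off the additive expectation toward control or past it. In the 13 positive loci, vegetative-shock leaves were below control by a median log2 fold change of -1.42 (range -3.51 to -0.42) and reproductive-shock leaves by -1.46 (range -4.38 to -0.13). In double-shock leaves the same loci stood above reproductive-shock leaves by a median of 0.98 (range 0.55 to 2.75). In the 5 negative loci, vegetative-shock leaves were above control by a median of 1.24 and reproductive-shock leaves by 0.98, and double-shock leaves were below reproductive-shock leaves by a median log2 fold change of -1.74 (range -2.18 to -1.61). These values chose the loci, and control libraries enter both single-shock differences and the interaction with opposite signs, so the shape is a description with no test. It was seen at 61.4% of all loci tested, at 95.3% of the 1772 loci with an unadjusted p below 0.05 and at 174 of the 175 loci called by DESeq2.

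At 10 of the 13 positive and all 5 negative loci the 4 double-shock and control libraries did not overlap with the 4 reproductive-shock and vegetative-shock libraries, a separation found at 5.04% of all loci tested. Double-shock libraries did not overlap with reproductive-shock libraries at any of the 18 loci (41.6% of all loci tested), nor with vegetative-shock libraries at 16 of them (38.3% of all loci tested). Vegetative-shock libraries did not overlap with control libraries at any of the 18 (34.3% of all loci tested), and reproductive-shock libraries overlapped with control at 1 (45.3% of all loci tested were free of overlap). Since the interaction was called on these same values, these counts describe the calls.

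The 2 loci with the most positive interaction lay on chromosome 2. LOC_Os02g52010 stood at 1.95 and 4.89 CPM in double-shock libraries, 0.612 and 0.389 CPM in reproductive-shock and 0.971 and 0.902 CPM in vegetative-shock libraries, against 10.1 and 11.4 CPM in control libraries. Every salt-treated library lay below both control libraries, and both double-shock libraries lay above every single-shock library. Reads behind these values numbered 20 and 58 in double-shock, 7 and 4 in reproductive-shock, 10 and 11 in vegetative-shock and 121 and 120 in control libraries. If the single-shock fold changes had multiplied, the double-shock level would have been 0.0435 CPM, which is below what 3 reads give, while the measured mean was 3.42 ± 2.08 CPM (SD, n = 2). The log2 interaction was 6.26 (SE 0.67, edgeR adjusted p = 0.027). The effect of the early shock was 2.75 with the late shock (SE 0.51, edgeR adjusted p = 0.23) and -3.51 without it (SE 0.44, edgeR adjusted p = 0.051), neither past the threshold on its own. Leaving out double-shock replicate 1, the lower of the pair, gave an interaction of 6.75, and leaving out replicate 2 gave 5.44, both still called. The interaction lost its call, at 5.98 to 6.61, without control replicate 2 and without any 1 vegetative-shock or reproductive-shock library (edgeR adjusted p from 0.069 to 0.15).

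LOC_Os02g47470 stood at 19.9 and 27.7 CPM in double-shock libraries, 5.95 and 5.74 CPM in reproductive-shock and 5.25 and 6.40 CPM in vegetative-shock libraries, against 38.9 and 73.2 CPM in control libraries. The libraries of the single-shock groups overlapped each other, and double-shock libraries lay between them and control. The locus fell after either single shock, with a log2 fold change of -3.26 in vegetative-shock leaves over control (SE 0.32, edgeR adjusted p = 0.043) and -3.26 in reproductive-shock leaves over control (SE 0.32, edgeR adjusted p = 0.010). An additive double shock would have left 0.607 CPM, and the measured mean was 23.8 ± 5.54 CPM (SD, n = 2). The log2 interaction was 5.28 (SE 0.45, edgeR adjusted p = 0.0066). Leaving out control replicate 2, the higher of the control libraries, gave 4.75, and leaving out control replicate 1 gave 5.67. Without reproductive-shock replicate 1 or 2 it was 5.30 or 5.26 and lost its call (edgeR adjusted p = 0.10 and 0.086).

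At the 2 loci with the most negative interaction the single shocks lay above control, and the double shock lay below it. LOC_Os09g37330, on chromosome 9, had 4.68 and 4.13 CPM in double-shock libraries, 17.9 and 22.0 CPM in reproductive-shock and 22.5 and 22.6 CPM in vegetative-shock libraries, against 14.7 and 7.24 CPM in control libraries. Single-shock libraries were the highest and double-shock libraries the lowest, below both control libraries. The additive expectation was 41.0 CPM and the measured mean 4.41 ± 0.390 CPM (SD, n = 2). The log2 interaction was -3.21 (SE 0.42, edgeR adjusted p = 0.042). This locus stood lower in double-shock than in vegetative-shock leaves (log2 fold change -2.36, SE 0.31, edgeR adjusted p = 0.0497, close to the threshold). In reproductive-shock leaves it stood at 0.85 over control (SE 0.28, edgeR adjusted p = 0.23). Its control libraries were the least alike of the groups, and leaving out replicate 1 gave an interaction of -3.82 and leaving out replicate 2 one of -2.80. It lost its call, at -3.36 to -3.06, without any 1 double-shock, reproductive-shock or vegetative-shock library (edgeR adjusted p from 0.088 to 0.20).

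LOC_Os02g45930, on chromosome 2, had the smallest p of all interactions tested. Double-shock libraries held 49.8 and 36.8 CPM of it, with 137.7 and 154.7 CPM in reproductive-shock and 161.3 and 127.8 CPM in vegetative-shock libraries, against 57.7 and 51.7 CPM in control libraries. Every single-shock library lay far above every double-shock and control library, and both double-shock libraries lay below both control libraries. The additive expectation was 386.6 CPM and the measured mean 43.3 ± 9.20 CPM (SD, n = 2). The log2 interaction was -3.16 (SE 0.25, edgeR adjusted p = 0.0066). The late shock raised the locus in plants without an earlier shock (log2 fold change 1.42 over control, SE 0.18, edgeR adjusted p = 0.017) and lowered it in plants with one (log2 fold change -1.74 over vegetative-shock leaves, SE 0.18, edgeR adjusted p = 0.026). Without reproductive-shock replicate 1 or 2 the interaction was -3.25 or -3.07 and lost its call (edgeR adjusted p = 0.10 and 0.071).

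**Figure D1:**
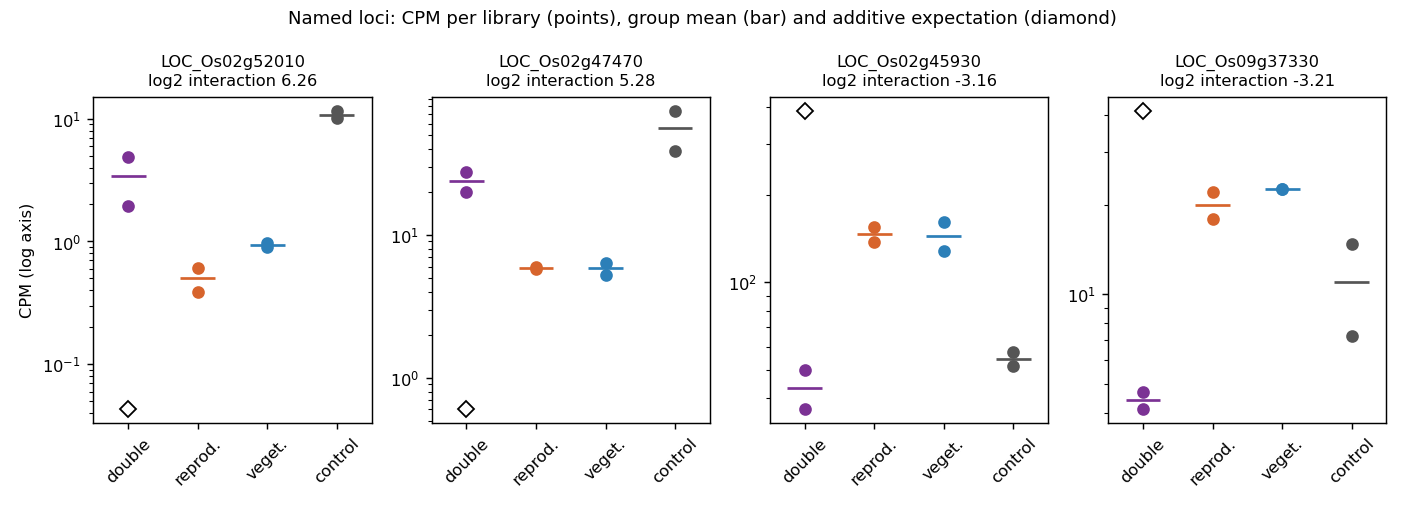
CPM on a log axis for the 4 named loci in double-shock, reproductive-shock, vegetative-shock and control libraries, with 1 point per library, a bar at the group mean and an open diamond at the level expected in double-shock leaves if the single-shock fold changes multiplied. The diamond lies below the double-shock libraries at the first 2 loci (0.0435 and 0.607 CPM) and above them at the other 2 (386.6 and 41.0 CPM).

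The other 11 positive loci had interactions of 1.28 to 3.73 (SE 0.17 to 0.44, edgeR adjusted p from 0.0066 to 0.042). Over all 13 positive loci, both double-shock libraries lay below both control libraries at 8, above them at 2, and overlapped them at 3. Over all loci tested, double-shock and control libraries were free of overlap at 41.6%. A locus on chromosome 7 with 21.7 and 29.7 CPM in double-shock libraries, 17.8 and 14.2 CPM in reproductive-shock and 22.2 and 24.9 CPM in vegetative-shock libraries, against 62.2 and 82.9 CPM in control libraries, stayed low after the double shock (log2 fold change -1.49 over control, SE 0.20, edgeR adjusted p = 0.035). Its double-shock and vegetative-shock libraries overlapped. One on chromosome 2 also stayed low, with 36.1 and 31.6 CPM in double-shock libraries, 11.9 and 15.2 CPM in reproductive-shock and 49.6 and 47.7 CPM in vegetative-shock libraries, against 75.1 and 104.1 CPM in control libraries (log2 fold change -1.40, SE 0.18, edgeR adjusted p = 0.029). There the double shock lay between the late and the early single shock. These were the only 2 of the 18 that were called between double-shock and control leaves, a comparison in which 0.164% of all loci tested were called.

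At 3 positive loci the double-shock libraries overlapped with control. A locus on chromosome 12 had 40.4 and 34.5 CPM in double-shock libraries, 19.7 and 18.3 CPM in reproductive-shock and 30.2 and 26.5 CPM in vegetative-shock libraries, against 38.6 and 37.5 CPM in control libraries. A further locus on chromosome 7 had 28.3 and 27.0 CPM in double-shock libraries, 16.1 and 15.3 CPM in reproductive-shock and 11.0 and 14.8 CPM in vegetative-shock libraries, against 27.4 and 28.2 CPM in control libraries. At these and 1 locus on chromosome 9, double-shock leaves stood at -0.02 (SE 0.13), -0.01 (SE 0.15) and 0.07 (SE 0.11) relative to control on the log2 scale. Both loci with double-shock libraries above control are on chromosomes 4 and 5. The one on chromosome 4 had 12.4 and 12.1 CPM in double-shock libraries, 6.73 and 5.55 CPM in reproductive-shock and 3.89 and 3.85 CPM in vegetative-shock libraries, against 12.04 and 10.3 CPM in control libraries. The one on chromosome 5 had 28.0 and 26.8 CPM in double-shock libraries, 13.2 and 15.0 CPM in reproductive-shock and 9.33 and 10.2 CPM in vegetative-shock libraries, against 14.3 and 16.6 CPM in control libraries. Both stood higher in double-shock than in vegetative-shock leaves (log2 fold change 1.66 with an edgeR adjusted p = 0.038 on chromosome 4, and 1.49 with an edgeR adjusted p = 0.026 on chromosome 5). The reproductive-shock and control libraries of the locus on chromosome 5 overlapped.

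The other 3 negative loci had interactions of -3.05 to -2.22 (SE 0.25 to 0.40, edgeR adjusted p from 0.027 to 0.042). The most abundant of the 18, on chromosome 6, had 144.5 and 92.8 CPM in double-shock libraries, 353.1 and 438.0 CPM in reproductive-shock and 539.9 and 410.3 CPM in vegetative-shock libraries, against 224.3 and 176.8 CPM in control libraries. The remaining ones, on chromosomes 4 and 5, held the same order of groups. At all 5 negative loci both double-shock libraries lay below both control libraries (double-shock and control libraries were free of overlap at 41.6% of all loci tested), with log2 fold changes over control of -1.33 to -0.34. None of these 5 differences from control was called, and the smallest adjusted p among them was 0.077. By contrast the double-shock mean lay past control at 3 of the 13 positive loci. Among DESeq2's calls it lay past control at 42 of 77 negative loci (54.5%) and 17 of 98 positive loci (17.3%), and among all loci tested at 46.6% of those with a negative and 48.9% of those with a positive estimate. The difference between the directions was not tested.

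**Figure D2:**
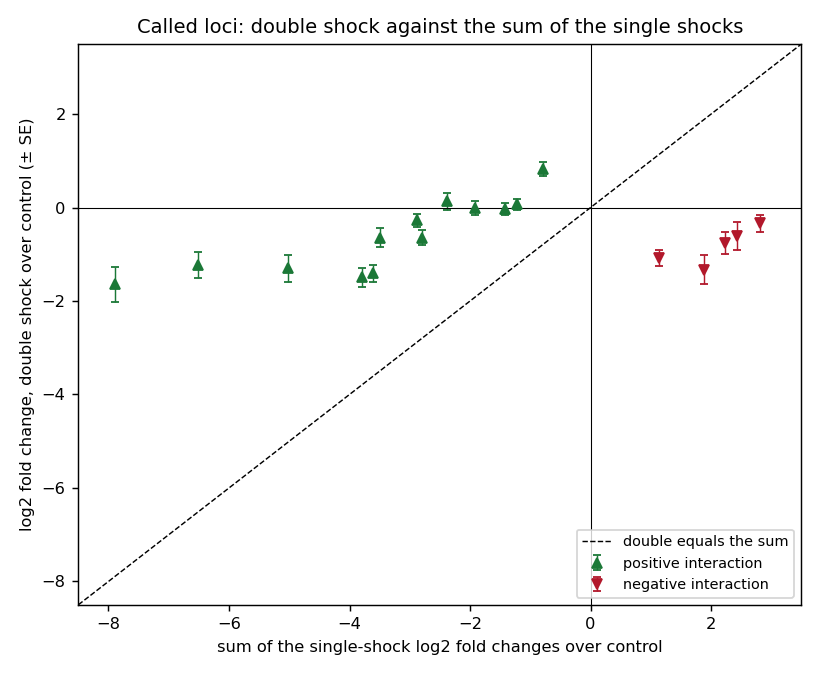
Log2 fold change of double-shock leaves over control, with its SE, against the sum of the log2 fold changes of the single shocks over control, for the 18 called loci, with the dashed line where they are equal. Sums run from -7.89 to -0.79 in the positive loci while the double shock stays between -1.64 and 0.83, and sums run from 1.14 to 2.82 in the negative loci while the double shock lies between -1.33 and -0.34.

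For the 13 positive loci the sum of the single-shock log2 fold changes had a median of -2.89, while double-shock leaves over control had a median of -0.64. For the 5 negative loci the medians were 2.22 for the sum and -0.76 for double-shock leaves. On the CPM scale, double-shock minus reproductive-shock CPM was set against vegetative-shock minus control CPM. The sign of the interaction was the same there at all 18 loci. At each of them the early-shock effect had opposite signs with and without the late shock. That alone fixes the sign on either scale, so the same sign is no separate check.

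The interaction was also set beside the comparisons it is built from, which share its libraries. Of the 18 loci, 3 were called in vegetative-shock leaves over control (0.0329% of all loci tested), all of them lower. None was called in double-shock over reproductive-shock leaves, where edgeR called 0% of loci, 1469 loci had an unadjusted p below 0.05 and DESeq2 called 72. In reproductive-shock leaves over control 10 were called (0.614% of all loci tested), of which 9 had a positive interaction. In double-shock over vegetative-shock leaves 6 were called (0.0712% of all loci tested), of which 4 had a negative interaction. 

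**Figure D3:**
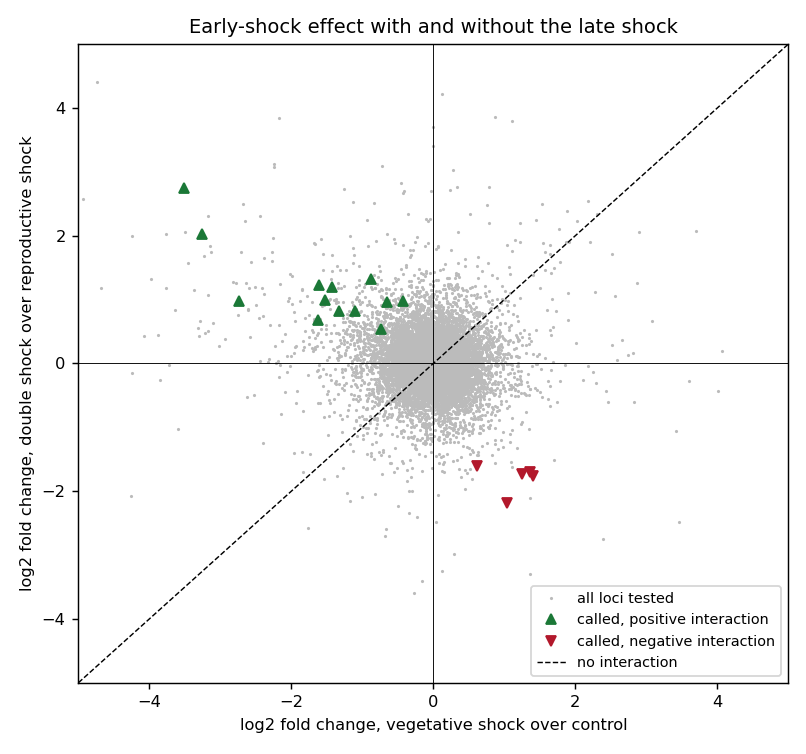
Log2 fold change of double-shock over reproductive-shock leaves against that of vegetative-shock leaves over control, for all 18251 loci tested (grey; 14 lie outside the axes), the 13 called loci with a positive interaction (triangles up) and the 5 with a negative one (triangles down). All 13 lie at the upper left and all 5 at the lower right, off the dashed line of equal effects. The loci were called on the difference between the plotted effects, so their place describes the calls and is no test.

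Chromosome 2 held 8 of the 18 (44.4%), 7 positive and 1 negative, and 11.96% of the loci tested. Chromosomes 4, 5, 7 and 9 held 2 each and chromosomes 6 and 12 held 1 each. The share of chromosome 2 was 12.7% among the 1772 loci with an unadjusted p below 0.05 and 17.1% among DESeq2's calls. It was 14.3% (16 loci) among the loci called in reproductive-shock leaves over control and 50% (3 of 6) among those called in vegetative-shock leaves over control. The 16 included all 8 chromosome 2 loci with a called interaction, and the 3 were also among these 8. Both comparisons share the control libraries with the interaction, so their shares are not separate observations.

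Each of the 18 interactions kept its direction in each of the 8 fits that left out 1 library, at 0.861 to 1.19 times its size. These fits reuse the libraries on which the 18 were chosen. Without reproductive-shock replicate 1, or without replicate 2, edgeR called 0 loci, with 1414 and 1327 at an unadjusted p below 0.05. Such a fit has 1 library in a group, assumed to vary like the other groups. Calls numbered 6 without double-shock replicate 1 and 39 without replicate 2, 4 without vegetative-shock replicate 1 and 7 without replicate 2, and 55 without control replicate 1 and 5 without replicate 2. Of the 55, 46 were positive and 15 were among the 18. In the 5 libraries of low multiply aligned share the 18 interactions had the same direction, at 0.862 to 1.17 times their size, with 1 of them called in a fit with 1 residual degree of freedom. In bulk leaf, fewer cells of a type and less RNA per cell cannot be told apart.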

How the data were processed

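Total RNA of 8 leaf libraries, made with an Illumina TruSeq kit, was sequenced, per the labels' protocols. Each table deposited by the authors holds unnormalised read counts of 1 library by locus. The submitters' processing notes name the tools STAR 2.7, HTSeq 0.11.1, edgeR 3.8, Trimmomatic and FastQC 0.11.7 but no settings. The sources used here do not give the genome build, annotation or strand setting, and counts of overlapping or near-identical loci are uncertain. Each table held 55986 loci, 55801 with LOC_Os identifiers. The reference gene table, of the assembly ASM3414082v1, paired 0 of them. The 5 summary lines of a table, 14.97% to 19.2% of its reads, were left out.

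Groups and replicate numbers came from the titles. Loci were kept by edgeR's filterByExpr, scaled by TMM and fitted with group as the only term in edgeR 4.0.16 (R 4.3.3), with 4 residual and 4.77 prior degrees of freedom and a common biological coefficient of variation of 16.7%. Two-sided quasi-likelihood F tests were adjusted by Benjamini-Hochberg over 18251 loci, with calls below 0.05. The SE of a log2 fold change was derived from it and its F value. The libraries of a group differed by more than sampling noise (chi-square per degree of freedom of 12.4 to 14.4 over loci with at least 10 reads). The scripts were tested on simulated data. Named loci are the 2 most positive and 2 most negative called interactions with at least 5 CPM in the highest group. Loci given by chromosome only were picked after their values were seen. Members and rules were chosen with earlier results of these data known. Alternatives included RLE factors, other filters, DESeq2 1.42.0, the likelihood ratio test, robust quasi-likelihood, a replicate block, a term for the multiply aligned share, and leaving out each library.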

Additional observations from a re-analysis of the deposited data

Results flagged for a closer look

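The early-shock effect differed between plants with and without the late shock, by the test of the interaction itself, at 18 loci by edgeR's quasi-likelihood test. The log2 interaction was 6.257 for LOC_Os02g52010, 5.284 for LOC_Os02g47470, -3.157 for LOC_Os02g45930 and -3.211 for LOC_Os09g37330, which were the loci named by rule. At each of them double-shock libraries were clear of reproductive-shock libraries (41.6% of all loci tested were free of this overlap). Vegetative-shock libraries were clear of control libraries (34.3% of all loci tested). The loci were chosen on these same values, so this describes them and is no test.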

How the results depend on the processing

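The 18 interactions kept their direction in all 17 alternative fits. These fits reuse the libraries on which the 18 were chosen for large estimates, so the kept direction is no separate test. All 18 stayed called with DESeq2, with the likelihood ratio test, with robust quasi-likelihood, with RLE factors, and with the low-count filter dropped or set to 1 CPM in 2 libraries. Of these, DESeq2, the likelihood ratio test, robust quasi-likelihood and the dropped filter called more loci than the main fit. With a replicate block, 14 of the 18 stayed called among 20 calls, the early shock without the late one had 11 calls, and LOC_Os09g37330 lost its call (log2 interaction -3.25, edgeR adjusted p = 0.0503). Same-numbered libraries deviated together at r = -0.153 to 0.254 between groups, so the numbers were not taken as pairing libraries. With a term for the multiply aligned share there were 28 interaction calls, 15 of the 18 among them, and 6 calls for the late shock with an earlier shock.

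Numbers of calls moved far more. For the interaction, the early shock without and with the late shock, and the late shock without and with the early shock, they were 18, 6, 0, 112 and 13. In that order they became 646, 499, 501, 1291 and 706 without the low-count filter, 249, 175, 95, 603 and 164 with the likelihood ratio test and 175, 128, 72, 434 and 113 with DESeq2. Robust quasi-likelihood gave 53, 14 and 2 for the first 3. The 5 libraries of low multiply aligned share, an alternative chosen after seeing the data, gave 4 interaction calls, 23 for the early shock without and 7 and 0 for the late shock without and with the other. The cause was not tested. Leaving out 1 library gave 0 to 55 interaction calls, 0 to 52 and 0 to 17 for the early shock without and with the late one, and 1 to 143 and 0 to 28 for the late shock without and with the early one. Positive interaction calls were 13 of 18 with TMM and with RLE factors, 403 of 646 without the low-count filter, 149 of 249 with the likelihood ratio test, 98 of 175 with DESeq2, 32 of 53 with robust quasi-likelihood, 16 of 28 with the term for the multiply aligned share, 14 of 20 with the block and 4 of 4 in the 5 libraries. Without 1 library they ran from 2 of 4 (vegetative-shock replicate 1) to 33 of 39 (double-shock replicate 2), where any locus was called.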
